A study of Mus musculus with 3 samples.

Results

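The genes described here encode the Rab GTPases of vesicle traffic. They were taken as every gene whose symbol is *Rab* followed by a number and at most 1 letter, a rule on names and not on values. The symbols of 59 genes matched, and 50 of them had at least 20 unique molecular identifiers (UMIs, each a tag of 1 captured transcript) over the cells kept, out of 15154 such genes among the 32285 listed. The 9 genes under that limit held 16 UMIs or fewer each, namely *Rab36* with 16, *Rab15* with 14, *Rab25* and *Rab3b* with 13 each, *Rab6b* with 7, *Rab27b* with 6, *Rab17* with 2, and *Rab39b* and *Rab9b* with 0.

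RNA was sequenced from single bone marrow derived macrophages (BMDMs) of female C3H/HeN mice aged 6 to 8 weeks, grown from marrow in medium conditioned by a cell line. The macrophages were left without lipoproteins in PBS (UI) or received 1 µg/mL of purified lipoproteins of *Borrelia burgdorferi* (*Bb*LP), the agent of Lyme disease, during 1 hour (LP1) or during 4 hours (LP4), and no group carried a transgene or a deleted gene. Per the study's methods, UI cells were collected at 4 hours, so LP1 and UI also differ in time of collection. By the same methods, macrophages from 3 mice were treated independently and the cells of 3 wells were pooled into each library. The methods also describe marrow as pooled between mice, so whether each well held cells of a separate mouse is not clear. Either way, every condition has 1 library and no replicate. No test between conditions was therefore made, and each interval below is a 95% interval for counting error alone. The macrophages are cultured cells of an inbred strain, and other strains or tissue macrophages were not measured.

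Rab proteins are small GTPases that mark membranes. Each cycles between a GTP-bound form, which sits on a membrane through a prenyl anchor and binds effectors that tether, move or fuse vesicles, and a GDP-bound form that is drawn off the membrane. Exchange factors switch them on and GTPase-activating proteins switch them off, and different members mark the endoplasmic reticulum and Golgi, secretory vesicles, early endosomes, recycling endosomes and late endosomes. In macrophages this traffic carries phagosomes to lysosomes, cytokines to the surface and Toll-like receptors between membranes.

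The 3 libraries held 6123, 5119 and 5039 barcodes for UI, LP1 and LP4, of which 6071, 5065 and 4670 were kept, with 35688939, 52475723 and 61402275 UMIs. Depth differed between the libraries, with medians of 5133 UMIs a cell in UI, 9343 in LP1 and 11784 in LP4. Values were therefore scaled to CPM, the UMIs of a gene per 1000000 UMIs of its library. From 4 to 10 barcode sequences occur in each pair of libraries. All 15 macrophage markers were detected in each library, including *Csf1r*, *Adgre1* and *Cd68*, and their summed level ran from 21550 CPM in UI to 18570 in LP4. Markers of neutrophils summed to 508 to 781 CPM and of dendritic cells to 161 to 164 CPM, with no marker of either list at 0, and cell cycle genes to 764 to 850 CPM. Markers of mast cells or basophils, lymphocytes, stromal cells and erythroid cells each summed to 21.3 CPM or less in each library, and *Fcer1a*, *Cma1*, *Prss34*, *Tpsb2*, *Trbc2*, *Ncr1*, *Cd3e*, *Hba-a2*, *Hbb-bs* and *Hbb-bt* were at 0 in all 3 libraries. The part of these other cells in the results below was not tested, except where values are given within cell clusters, for macrophage-like clusters alone or without neutrophil-like cells.

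The sum of Rab transcripts was nearly level over the 3 libraries while the order of the members changed. The Rab genes together held 4492 CPM in UI, 4327 in LP1 and 4136 in LP4. Transcripts assigned to the early endosome went from 606 and 612 CPM in UI and LP1 to 832 in LP4, while those of the late endosome went from 1096 and 1017 to 659 CPM. A few genes carried these sums. *Rab31* alone made up 139.5 of the 226 CPM by which the early endosome sum of LP4 lay above that of UI, with 54.6 from *Rab22a* and 32.5 from *Rab5a*, while *Rab20* differed by -18.2 CPM. The late endosome sum differed by -436 CPM, to which *Rab7b* gave -334 and *Rab7* -136, while *Rab9* and *Rab32* differed by 27.3 and 14.0 CPM the other way. As shares of all Rab UMIs, the early endosome held 13.5% in UI, 14.2% in LP1 and 20.1% in LP4 (interval 20.0 to 20.3), and the late endosome 24.4%, 23.5% and 15.9% (interval 15.8 to 16.1). The secretory share went from 30.3% to 28.7%, the recycling share from 13.9% to 15.4% and the ER and Golgi share from 16.0% to 17.9% between UI and LP4. The members left without a role held 1.9% to 2.0% in every library. Roles are textbook assignments, 1 for each gene, although several Rab proteins act at more than 1 membrane.

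**Figure D1:**
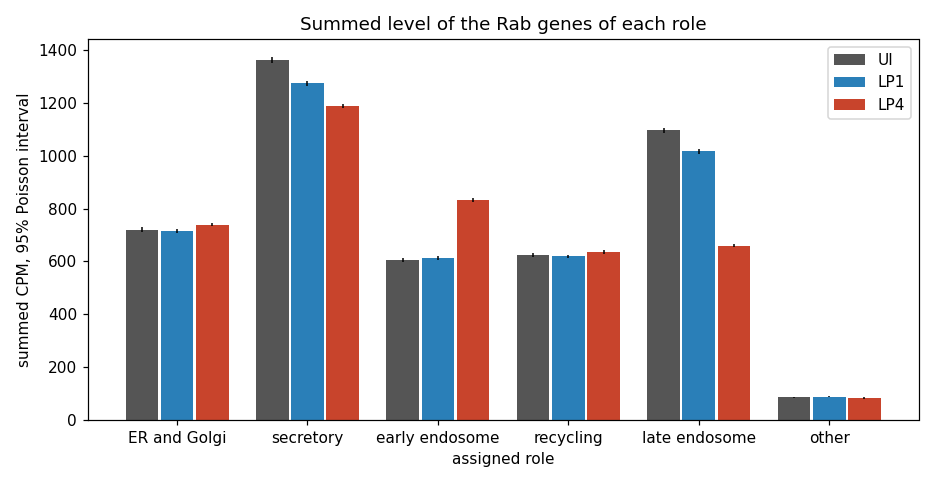
Summed CPM of the Rab genes of each role (vertical axis) in UI, LP1 and LP4, with 95% Poisson intervals for counting error as bars. The early endosome bar rises from 606 CPM in UI to 832 in LP4 and the late endosome bar falls from 1096 to 659, while the ER and Golgi and the recycling bars stay level.

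A gene was called where its CPM differed by at least 1.5-fold (0.585 on the log2 scale) with the interval of the ratio clear of 0. In LP1 over UI, 2 of the 50 Rab genes were called higher and 1 lower, against 4.21% and 6.58% of all genes called higher and lower. In LP4 over UI, 12 were called higher and 9 lower, that is 24.0% and 18.0% of the members, beside 18.0% and 27.1% of all genes. In LP4 over LP1, which shares a library with each of the other comparisons, 11 were called higher and 7 lower, beside 16.6% and 22.3% of all genes. Among genes with at least 10 CPM in 1 library, 8 of 35 Rab genes were called higher in LP4 over UI and 6 lower, beside 20.0% and 23.1% of all 8103 such genes. With 1 library a condition, nothing particular to the Rab genes is read from these shares, and the account below is of which members moved. The counts by role below stand beside these same shares of all genes, and nothing particular to a role is read from them.

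The median log2 ratio of the 50 members was -0.01 in LP1 over UI, -0.10 in LP4 over UI and -0.11 in LP4 over LP1, beside -0.05, -0.17 and -0.11 over all genes. Scaling by TMM or by medians of ratios, which set the middle of all genes near 0, moved the LP4 over UI median of all genes from -0.17 to -0.02 and 0.00. Under these scalings the calls in LP4 over UI were 14 higher and 7 lower, or 15 higher and 7 lower, in place of 12 and 9, beside 22.6% and 21.4%, or 23.1% and 20.8%, of all genes called higher and lower. *Rab32* and *Rab23* gained a call under both scalings and *Rab18* under medians of ratios, while *Rab43* and *Rab24* lost theirs under both. The median of the members was then 0.04 or 0.06 in place of -0.10. A ratio close to 0 therefore has no firm direction here.

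**Figure D2:**
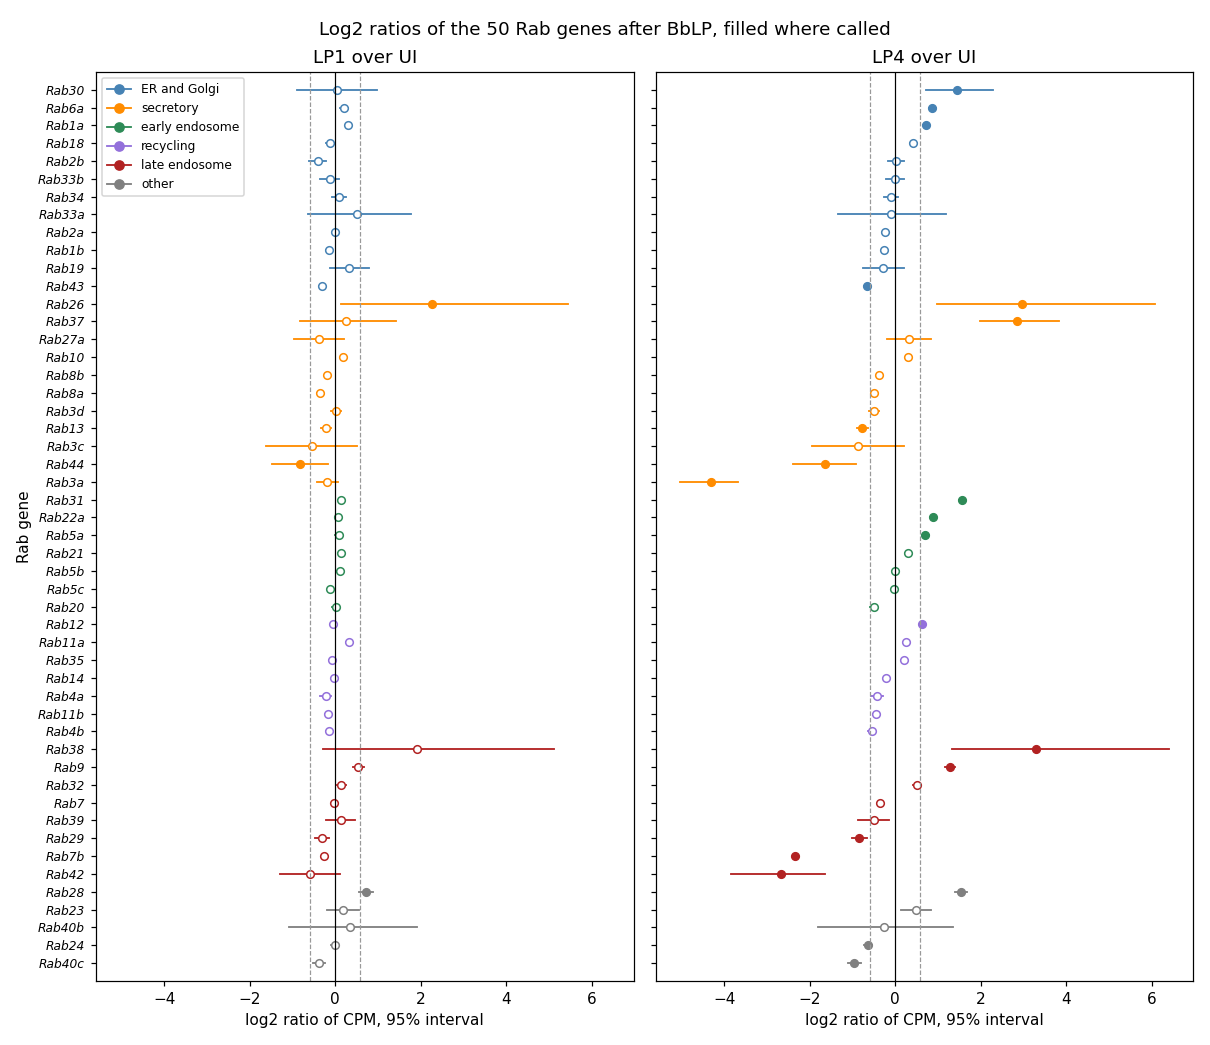
Log2 ratio of CPM of each of the 50 Rab genes in LP1 over UI (left) and LP4 over UI (right), with 95% intervals for counting error, grouped and coloured by role. Filled points were called, and dashed lines mark 1.5-fold. At 1 hour 3 points are filled, and at 4 hours 21 are. At 4 hours the sparse *Rab3a* and *Rab42* lie furthest to the left and the sparse *Rab38*, *Rab26* and *Rab37* furthest to the right. Among members with at least 10 CPM, *Rab7b* lies furthest to the left and *Rab31*, *Rab28* and *Rab9* furthest to the right.

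The kit tags transcripts at the 3′ end, so CPM was compared between genes without a length correction. Whether reads in introns were counted is not known, and if they were, priming within introns could make a level depend on gene length, so the order of the genes is that of their UMIs. A handful of genes carried most Rab transcripts in UI. *Rab8b*, of secretory vesicles, stood at 874 CPM, *Rab7*, which drives fusion of late endosomes with lysosomes, at 607, *Rab7b* at 416, *Rab10* at 318 and *Rab2a* at 293. These 5 held 55.8% of the Rab UMIs. The order of these levels was clear of counting error, since no interval of one met that of the next. In LP4 the order was *Rab8b* (677 CPM), *Rab7* (471), *Rab10* (395), *Rab2a* (247), *Rab31* (211) and *Rab5c* (209), and the last 2 could not be ordered, with intervals of 208 to 215 and 206 to 213 CPM. *Rab31* had gone from rank 16 among the Rab genes to rank 5, and *Rab7b* from rank 3 to rank 15.

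**Figure D3:**
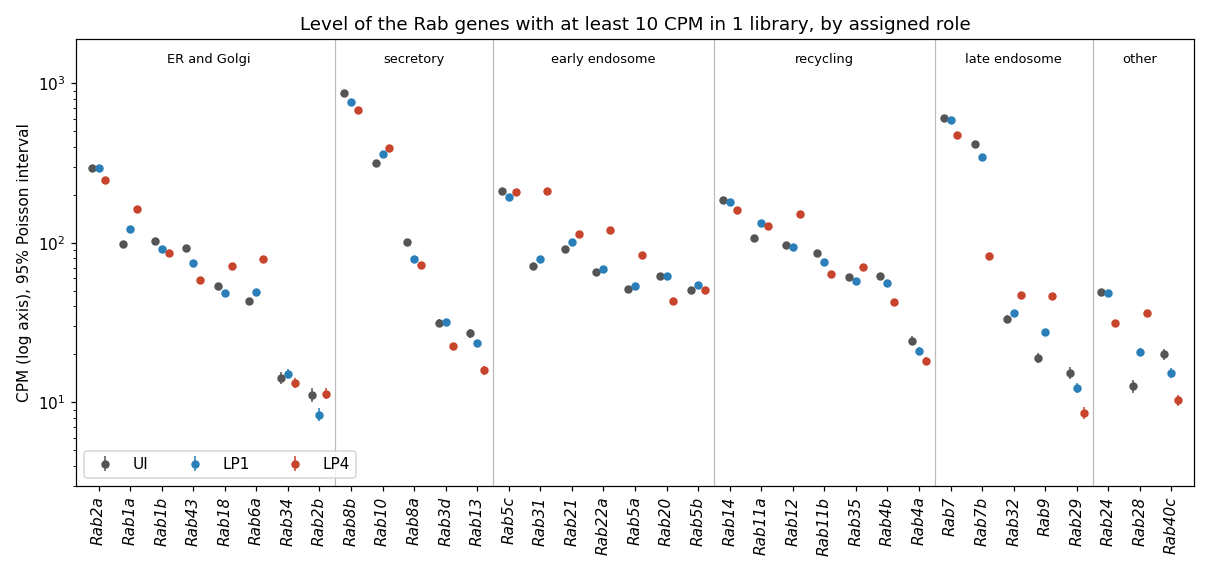
CPM on a log axis of the 35 Rab genes that reached 10 CPM in a library, by role and, within a role, by mean level, in UI, LP1 and LP4, with 95% Poisson intervals. UI and LP1 lie close together for most members, and the LP4 points of *Rab31*, *Rab7b*, *Rab9* and *Rab28* stand apart from both.

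All 3 early endosome genes called at 4 hours were higher, and none of the 7 was called at 1 hour. Over all genes, 18.0% were called higher and 27.1% lower at 4 hours, and 4.21% and 6.58% at 1 hour. *Rab31*, also known as Rab22b, which carries cargo between the Golgi and early endosomes and lies at chr17:65651729-65772752 (minus strand, GRCm38), stood at 71.8 CPM in UI, 78.8 in LP1 and 211 in LP4. LP1 lay just above UI, with intervals of 76.4 to 81.2 and 69.1 to 74.7 CPM that cover counting error only, and was not called. LP4, at 208 to 215 CPM, was 2.94-fold above UI (log2 1.56). Its nearest relative *Rab22a* (chr2:173659760-173707343, plus strand), which acts on early endosomes, stood at 65.4, 68.4 and 120.0 CPM in UI, LP1 and LP4, and LP4 over UI was 0.88 (0.81 to 0.94) on the log2 scale. *Rab31* and *Rab22a* held near equal parts of their pair in UI, where *Rab31* had 52.4% of the UMIs (51.0 to 53.8), and *Rab31* held 63.8% (63.1 to 64.5) in LP4.

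The third was *Rab5a* (chr17:53479234-53507680, plus strand), whose protein governs fusion of early endosomes. It stood at 51.1, 53.9 and 83.6 CPM in UI, LP1 and LP4, a log2 ratio of 0.71 (0.63 to 0.79) in LP4 over UI. Its paralogs did not move with it. *Rab5c*, the most abundant of the 3 *Rab5* genes, stood at 213, 194 and 209 CPM, and *Rab5b* at 50.7, 54.3 and 50.8 CPM. The log2 ratio of LP4 over UI was -0.02 (-0.06 to 0.02) for *Rab5c* and 0.00 (-0.08 to 0.09) for *Rab5b*, though *Rab5c* was at 0.12 to 0.14 under the other scalings. *Rab5a* thereby went from 16.2% to 24.3% of the *Rab5* UMIs. The 2 other members of this role, neither of them called, were *Rab21* with a log2 ratio of 0.29 and *Rab20*, a phagosome Rab, with -0.51 (-0.59 to -0.42).

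The promoters of the members with the largest called ratios are shown to give the sequence beside the genes that moved. RefSeq windows on GRCm38.p6 were matched for 41 of the 50 members, and those without one were *Rab18*, *Rab2a*, *Rab30*, *Rab26*, *Rab37*, *Rab44*, *Rab4a*, *Rab38* and *Rab7b*. The 250 bases that end at the RefSeq start are given on the strand of the gene. They are shown for the 2 largest rises and the 2 largest falls in LP4 over UI among the matched members with at least 10 CPM. These stretches lie at chr17:65772753-65773002 (minus strand) for *Rab31*, chr5:41708180-41708429 (minus strand) for *Rab28*, chr17:25919715-25919964 (minus strand) for *Rab40c* and chr1:131867027-131867276 (plus strand) for *Rab29*. For *Rab28*, *Rab40c* and *Rab29* the RefSeq start differs from that of the GENCODE gene position given elsewhere in the text. Capitals mark matches to the kappa-B motif, AP-1 (TGANTCA), CRE (TGACGTCA), the E-box (CACGTG), the GC box (GGGCGG) or the interferon-stimulated response element (ISRE), searched on both strands.
Rab31: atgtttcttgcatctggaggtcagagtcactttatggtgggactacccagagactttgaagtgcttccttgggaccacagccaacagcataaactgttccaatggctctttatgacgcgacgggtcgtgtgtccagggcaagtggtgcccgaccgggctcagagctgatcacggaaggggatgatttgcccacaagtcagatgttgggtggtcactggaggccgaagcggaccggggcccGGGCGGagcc
Rab28: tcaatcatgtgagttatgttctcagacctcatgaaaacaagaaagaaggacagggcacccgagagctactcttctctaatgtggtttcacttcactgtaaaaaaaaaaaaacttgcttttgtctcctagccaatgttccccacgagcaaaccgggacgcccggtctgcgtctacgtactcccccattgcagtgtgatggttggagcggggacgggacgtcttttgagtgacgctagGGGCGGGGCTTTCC
Rab40c: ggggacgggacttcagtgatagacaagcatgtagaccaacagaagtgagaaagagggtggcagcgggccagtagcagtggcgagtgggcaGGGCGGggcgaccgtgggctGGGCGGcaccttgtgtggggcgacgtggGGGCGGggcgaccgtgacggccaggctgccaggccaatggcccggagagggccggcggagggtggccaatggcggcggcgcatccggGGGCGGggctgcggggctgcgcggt
Rab29: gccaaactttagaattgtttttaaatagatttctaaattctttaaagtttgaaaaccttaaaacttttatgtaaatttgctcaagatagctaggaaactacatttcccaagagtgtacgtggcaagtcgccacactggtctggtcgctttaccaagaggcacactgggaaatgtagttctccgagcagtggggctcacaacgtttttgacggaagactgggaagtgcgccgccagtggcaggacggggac

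In *Rab28* a kappa-B match covers the last 10 bases before the RefSeq start and overlaps a GC box match at 14 to 9 bases before it. *Rab31* holds 1 GC box match, 10 to 5 bases before the start, *Rab40c* holds 4 of them, and *Rab29* holds no match to any of the 6 motifs. *Rab28* was the only member of the 41 with a kappa-B match, a motif found in 3.90% of all 32851 windows. *Rab5a* was the only member with a CRE match (1.55% of all windows), and it also held an E-box match, as did *Rab20*, *Rab21* and *Rab23* (6.02% of all windows). The GC box was in 29 of the 41 member windows (70.7%) and in 32.7% of all windows, with a median GC content of 60.8% and 52.4%. The set of all windows was not limited to genes with at least 20 UMIs, and a gene could have more than 1. The percentages of members and of all windows therefore come from unlike sets, and no trait of Rab promoters is read from them. By LP4 over UI, 6 of the 8 windows of members called higher, 4 of the 7 called lower and 19 of the 26 not called held a GC box. AP-1 was matched in *Rab34* and ISRE in *Rab19*, neither of which was called in LP4 over UI, beside 6.75% and 2.98% of all windows. A match is a match of letters and no evidence that a factor binds.

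Of the 8 late endosome genes, 2 were called higher and 3 lower at 4 hours, and none at 1 hour. *Rab7b* (chr1:131688695-131715439, plus strand) encodes a relative of Rab7 that acts between late endosomes and the Golgi and is known to limit signalling by endosomal Toll-like receptors. It stood at 416 CPM in UI, 344 in LP1 and 82.7 in LP4. LP1 was already below UI, by less than 1.5-fold (log2 -0.27, interval -0.31 to -0.24), and LP4 was 5.03-fold below UI (log2 -2.33, interval -2.38 to -2.29). It was the fall of the greatest size among the 35 members with at least 10 CPM.

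*Rab7* (chr6:87999106-88045270, minus strand) stood at 607, 591 and 471 CPM in UI, LP1 and LP4 and was not called, with a log2 ratio of -0.37 (-0.39 to -0.34) in LP4 over UI. *Rab7b* thus went from 40.7% of the UMIs of the *Rab7* and *Rab7b* pair in UI to 36.8% in LP1 and 14.9% in LP4 (14.6 to 15.3), and the pair from 1024 to 554 CPM. *Rab29* (chr1:131867224-131872887, plus strand), the next Rab gene to *Rab7b* on chromosome 1 and a partner of the kinase Lrrk2, stood at 15.3, 12.3 and 8.60 CPM. Its log2 ratio in LP4 over UI was -0.83 (-1.01 to -0.66).

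*Rab9* (chrX:166457253-166479867, minus strand), which returns mannose 6-phosphate receptors from late endosomes to the Golgi, moved the other way. It stood at 19.0 CPM in UI, 27.6 in LP1 and 46.3 in LP4, with LP1 between the other two. LP1 over UI was 0.54 (0.40 to 0.67), short of 1.5-fold by the main scaling and just past it, at 0.59, under TMM. LP4 over UI was 1.28 (1.16 to 1.41). *Rab32*, which serves lysosome-related organelles, stood at 33.2, 36.5 and 47.2 CPM, with 0.51 (0.41 to 0.61) in LP4 over UI and no call by the main scaling, although it was called higher under TMM (0.66) and medians of ratios (0.67).

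The remaining late endosome genes were sparse. *Rab38*, the close relative of *Rab32*, had 2 UMIs in UI, 11 in LP1 and 34 in LP4 and was called higher (log2 3.30, interval 1.34 to 6.41). Without the neutrophil-like cells of cluster H, described below, it had 1, 9 and 23 UMIs and was still called higher in LP4 over UI. *Rab42* had 37, 36 and 10 UMIs and was called lower (log2 -2.67, interval -3.84 to -1.63). *Rab39*, a phagosome Rab, stood at 3.36, 3.66 and 2.38 CPM and was called lower in LP4 over LP1 (log2 -0.62), a call lost under TMM (-0.52) and medians of ratios (-0.50). These 3 were below 10 CPM in each library, and the intervals of *Rab38* and *Rab42* were wide.

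Among the 12 genes of the ER and Golgi, 3 were called higher and 1 lower at 4 hours, and none at 1 hour. *Rab6a* (chr7:100607410-100641268, plus strand), which directs vesicles from and within the Golgi, stood at 43.2, 49.4 and 78.9 CPM in UI, LP1 and LP4, with 0.87 (0.79 to 0.95) in LP4 over UI. *Rab1a* (chr11:20201432-20226856, plus strand), of transport from the ER to the Golgi, stood at 99.0, 122 and 162 CPM. Its log2 ratio was 0.31 (0.25 to 0.37) in LP1 over UI and 0.71 (0.66 to 0.77) in LP4 over UI. *Rab1b*, which serves the same step, stood at 103, 92.1 and 86.2 CPM, so that *Rab1a* held 49.1% of the pair's UMIs in UI, 57.1% in LP1 and 65.3% in LP4 with no overlap of the intervals.

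*Rab30*, a Golgi Rab, was the third of the ER and Golgi genes called higher, on 18, 27 and 85 UMIs in UI, LP1 and LP4 (log2 1.46, interval 0.71 to 2.28). *Rab43* (chr6:87788853-87812164, minus strand), another Golgi Rab, fell from 92.4 CPM in UI and 74.6 in LP1 to 58.2 in LP4, a log2 ratio of -0.67 (-0.74 to -0.60). That call was lost under TMM (-0.52) and medians of ratios (-0.50). The most abundant gene of the role, *Rab2a*, stood at 293, 294 and 247 CPM, with -0.25 (-0.28 to -0.21) in LP4 over UI and no call. *Rab18*, of the ER and lipid droplets, had 0.43 (0.35 to 0.51) and was not called, was called at 0.59 under medians of ratios, and its annotation overlaps *Gm50081* on the same strand.

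Of the 11 secretory genes, 2 were called higher and 3 lower at 4 hours, and 1 each at 1 hour. *Rab8b* (chr9:66843664-66919687, minus strand) fell short of a call, at 874, 769 and 677 CPM (log2 -0.37, interval -0.39 to -0.35, in LP4 over UI). *Rab10* (chr12:3247428-3309969, minus strand), known to carry Toll-like receptor 4 to the macrophage surface, stood at 318, 363 and 395 CPM, with 0.31 (0.28 to 0.34) and no call. *Rab8a* stood at 101, 79.1 and 72.2 CPM, and *Rab8b* held 89.6% to 90.7% of the pair's UMIs in every library, so the balance of this pair hardly moved.

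*Rab13* (chr3:90213695-90226385, plus strand), of traffic to cell junctions, was called lower at 4 hours, with 27.1, 23.4 and 15.9 CPM in UI, LP1 and LP4 (log2 -0.77, interval -0.90 to -0.64). The other called secretory genes were all under 10 CPM. *Rab3a*, of regulated exocytosis, had 243 UMIs in UI and 314 in LP1 and 21 in LP4, or 6.81, 5.98 and 0.34 CPM. UI and LP1 lay close together (log2 -0.19, interval -0.43 to 0.06), and LP4 was 19.9-fold below UI (log2 -4.32, interval -5.03 to -3.67). *Rab3d*, its more abundant relative, stood at 31.6, 31.8 and 22.4 CPM and was not called.

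*Rab37*, a Rab of secretory granules, had 12 UMIs in UI, 21 in LP1 and 148 in LP4 and was called higher at 4 hours (log2 2.84, interval 1.99 to 3.83). *Rab26* had 2, 14 and 27 UMIs and was called higher at both times, but it overlaps *Traf7* on the same strand and its reads may be those of *Traf7*. *Rab44*, a long Rab protein with calcium-binding motifs, had 47, 39 and 26 UMIs and was called lower at 1 hour (log2 -0.83, interval -1.48 to -0.18) and at 4 hours (-1.64, interval -2.39 to -0.92). Of these UMIs, 17, 7 and 19 came from the 84 neutrophil-like cells of cluster H. Without that cluster *Rab44* had 30, 32 and 7 UMIs, the call at 1 hour was lost (-0.46, interval -1.23 to 0.30) and that at 4 hours was kept (-2.88, interval -4.31 to -1.66). *Rab27a*, of granule release, had 49, 55 and 105 UMIs and was called higher in LP4 over LP1 (log2 0.71) but not in LP4 over UI. Cluster H held 14, 14 and 31 of its UMIs, at 104 to 134 CPM, against 3.62 CPM or less in clusters A to G, and without that cluster LP4 over LP1 was 0.63 (0.06 to 1.22).

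Of the 7 recycling genes, 1 was called higher at 4 hours and none lower. *Rab12* (chr17:66494512-66519729, minus strand), which sends recycling receptors to lysosomes, stood at 97.7, 94.4 and 151 CPM in UI, LP1 and LP4, with 0.63 (0.58 to 0.69) in LP4 over UI. *Rab14* stood at 186, 181 and 161 CPM and *Rab11a* at 107, 133 and 128 CPM, and neither was called. *Rab11a*, the marker of recycling endosomes, nonetheless gained on *Rab11b*, from 55.3% of the pair's UMIs in UI to 63.6% in LP1 and 66.9% in LP4. Over the other 4 genes, *Rab35*, *Rab4a*, *Rab4b* and *Rab11b*, the log2 ratio of LP4 over UI ran from -0.55 for *Rab4b* to 0.20 for *Rab35*.

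Of the 5 genes without a role in these groups, *Rab28* (chr5:41624976-41708157, minus strand), a Rab of cilia and photoreceptors, was the only member with at least 10 CPM called at 1 hour. It stood at 12.6 CPM in UI, 20.7 in LP1 and 36.6 in LP4, each above the one before. The log2 ratio was 0.71 (0.56 to 0.88) in LP1 over UI, 1.54 (1.39 to 1.69) in LP4 over UI and 0.82 (0.72 to 0.93) in LP4 over LP1, all 3 called. *Rab40c* (chr17:25882114-25919727, minus strand), which joins a ubiquitin ligase, went the opposite way at 20.0, 15.3 and 10.3 CPM (log2 -0.95, interval -1.11 to -0.80, in LP4 over UI).

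*Rab24* (chr13:55319743-55321946, minus strand), linked to autophagy, stood at 49.2 and 48.7 CPM in UI and LP1 and 31.6 in LP4. Its call in LP4 over UI (log2 -0.64, interval -0.73 to -0.55) was lost under TMM (-0.49) and medians of ratios (-0.48). *Rab23* and *Rab40b* were not called, on 100 to 240 and 7 to 13 UMIs, although *Rab23* was at 0.63 and 0.65 and called under these scalings. The other members not called in LP4 over UI were *Rab2b*, *Rab33a*, *Rab33b*, *Rab34* and *Rab19* of the ER and Golgi and *Rab3c* of the secretory group, of which *Rab19* was called lower in LP4 over LP1 (log2 -0.60), which was lost under TMM (-0.51) and medians of ratios (-0.48).

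Cells were grouped by genes that differed little between libraries, with the Rab genes left out, and 7 of the 9 clusters had at least 50 cells in every library. Clusters A to E had no list with 3 markers among their leading 10 genes, and were called macrophage-like because 9 to 11 of the 15 macrophage markers were detected in at least 50% of their cells. F was cycling-like and G, with 201 cells, was dendritic cell-like, while the 84 cells of the neutrophil-like cluster H and the 61 of the stromal-like cluster I were too few to compare. Among the leading 10 genes of cluster D were *Itgb3*, *Mmp9*, *Ctsk* and *Atp6v0d2*, genes known from osteoclasts. The others were *Mgll*, *Eef1a2*, *Cd200*, *Dio2*, *Gm6209* and *Fn1*. Clusters are therefore compared by letter. The clusters are not replicates, since each library gave cells to all of them.

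Of the 14 called genes with at least 10 CPM, 13 kept the direction of LP4 over UI in all 7 clusters. Direction here is the sign of the ratio alone, without regard to its interval. The smaller ratios, such as 0.30 for *Rab28* in cluster G, therefore have no firm direction. *Rab31* was higher by 1.37 (cluster F) to 1.82 (cluster B) on the log2 scale. *Rab7b* was lower by -2.03 (cluster D) to -2.59 (cluster G), and its CPM ran from 311 to 491 over the clusters in UI and from 51.7 to 106 in LP4, with no overlap. *Rab1a* was the most even, at 0.66 to 0.76. The exception was *Rab40c* in cluster G, with 0 UMIs in UI and 14.2 CPM in LP4. There it lay higher in LP4, against its fall over all cells. The size of that ratio, 1.08 on the log2 scale, rests on the floor of 3 UMIs set for UI. The fall of *Rab7b* and the rise of *Rab31* were thus present in each macrophage-like cluster as well as in the cycling-like cells.

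**Figure D4:**
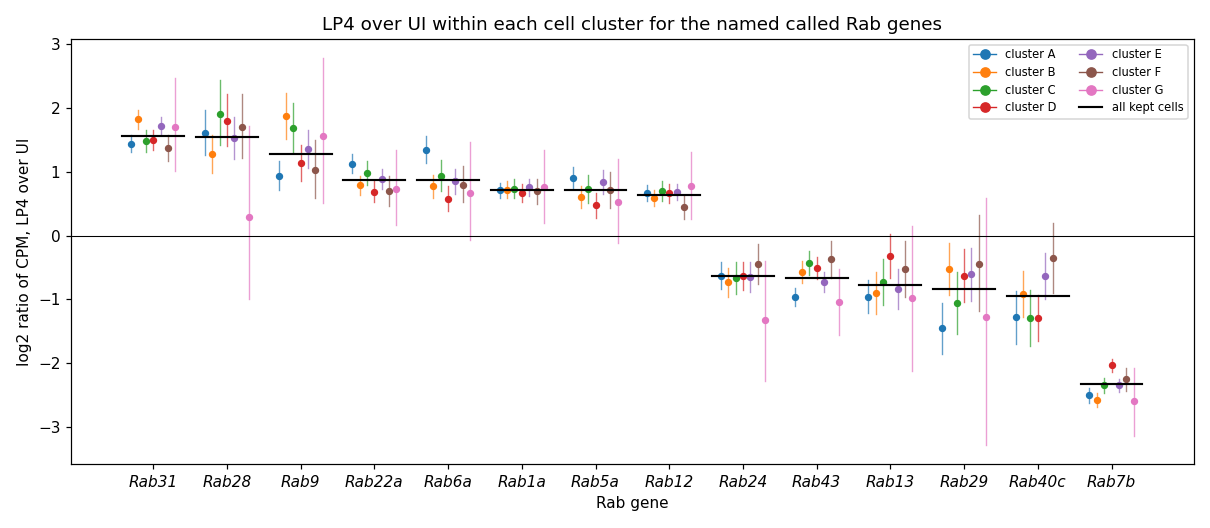
Log2 ratio of CPM in LP4 over UI (vertical axis) within each of clusters A to G for the 14 called Rab genes with at least 10 CPM, with 95% intervals for counting error, and the value over all kept cells as a black line. The points drawn for a gene lie on the same side of 0, and those of *Rab6a*, *Rab9* and *Rab28* spread most among the genes that rose. *Rab40c* in cluster G, with 0 UMIs in UI and 14.2 CPM in LP4, is not drawn and would lie above 0.

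Some members differed between clusters in how far they moved. *Rab6a* rose by 1.34 (1.13 to 1.56) in cluster A, where it was lowest in UI (31.5 CPM), and by 0.58 (0.38 to 0.78) in cluster D. *Rab9* was highest in UI in cluster A (29.7 CPM) and lowest in B (10.2 CPM), a 2.92-fold span, and its ratio was 0.94 in A and 1.87 in B. *Rab32* showed the same arrangement. It stood at 55.1 CPM in A, 22.7 in B and 18.2 in D in UI, and at 50.8, 47.8 and 37.5 in LP4, with ratios of -0.12 (-0.30 to 0.07), 1.08 (0.82 to 1.34) and 1.05 (0.74 to 1.37). Its levels were therefore much closer between clusters in LP4, where the highest was 1.35-fold the lowest, than in UI, where it was 3.04-fold. *Rab20* kept its span, at 112 CPM in A and 36.3 in D in UI, a 3.10-fold span, and 3.67-fold between A and B in LP4.

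Read per cell at an equal depth of 2000 UMIs, *Rab7b* was seen in 53.3% of cells in UI, 49.3% in LP1 and 14.5% in LP4 (intervals 52.0 to 54.5, 47.9 to 50.7 and 13.5 to 15.5). Without the thinning the shares were 81.4%, 89.5% and 55.0%. Among the neutrophil-like cells of cluster H, *Rab7b* was seen at the same depth in 1 of 21, 2 of 20 and 1 of 28 cells, or 4.76%, 10.0% and 3.57% (intervals 0.12 to 23.8, 1.24 to 31.7 and 0.09 to 18.4). At this depth the last interval reaches above the 14.5% of all LP4 cells. Without thinning, *Rab7b* was seen in 3.1%, 8.3% and 7.1% of the cells of cluster H in UI, LP1 and LP4. The part of free RNA in these shares was not tested. Before thinning, these cells held medians of 3947, 6219 and 9261 UMIs, and all cells used 5194, 9353 and 11838. *Rab31* was seen in 13.1%, 14.9% and 33.0% of cells at 2000 UMIs, and in 30.8%, 50.1% and 82.8% without thinning. At 2000 UMIs, *Rab31* was seen in 28.6%, 25.0% and 28.6% of the cells of cluster H (intervals 11.3 to 52.2, 8.66 to 49.1 and 13.2 to 48.7). Whether these cells expressed it themselves was not tested, and no background for that gene was taken from them.

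The genes that act on Rab proteins were taken from a list of 140, of which 132 had at least 20 UMIs. None was called higher and 5 lower in LP1 over UI, 20 higher and 37 lower in LP4 over UI, and 19 higher and 28 lower in LP4 over LP1, beside the shares of all genes given above. As percentages, LP4 over UI called 15.2% of the partners higher and 28.0% lower, close to those of all genes, with a median log2 ratio of -0.25. Each class stands beside 18.0% of all genes called higher and 27.1% lower. Of 36 genes for exchange factors 9 (25.0%) were called higher and 10 (27.8%) lower. Of 35 for GTPase-activating proteins the counts were 6 (17.1%) and 12 (34.3%), and of 53 for effectors 4 (7.55%) and 15 (28.3%). Of the 8 genes for prenylation and membrane extraction 1 (12.5%) was higher. Each gene has 1 class in the list. *Rab3gap1* and *Rab3gap2*, named for a Rab3 GTPase-activating protein, are counted there as exchange factors, and *Rab3gap2* is among those called lower. *Rubcn*, which was not called, is counted with the GTPase-activating proteins although it is known as an effector of Rab7. Nothing particular to a class is read from these counts.

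The partner genes with the largest called ratios and at least 10 CPM fell in this way. *Dennd4a*, an exchange factor for Rab10, stood at 275, 223 and 41.0 CPM in UI, LP1 and LP4 (log2 -2.75, interval -2.81 to -2.68, in LP4 over UI). Next came 2 GTPase-activating genes, *Tbc1d4*, which acts on Rab10 and its relatives, from 15.0 to 2.83 CPM, and *Tbc1d2*, which acts on Rab7, from 24.8 to 5.54 CPM. *Hps4*, of the exchange factor for Rab32 and Rab38, went from 17.3 CPM in UI to 11.3 in LP1 and 4.53 in LP4. *Mical1*, an actin-oxidising effector, went from 17.3 to 5.03 CPM, and *Plekhm1*, an effector of Rab7 in lysosome fusion, from 46.0 to 14.3 CPM. *Hps4* and *Tbc1d17* were also called lower at 1 hour, with log2 ratios of -0.61 and -0.59.

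On the other side, *Inpp5b*, an inositol phosphatase bound by several Rab proteins, stood at 7.06, 7.85 and 42.0 CPM (log2 2.57, interval 2.39 to 2.77, in LP4 over UI). *Dennd2a*, an exchange factor for Rab9, went from 19.8 to 50.3 CPM between UI and LP4, and *Exoc6b*, of the exocyst, from 116 to 289 CPM. *Dennd1a*, an exchange factor for Rab35, was the most abundant of these genes, at 391, 412 and 859 CPM (log2 1.14). *Tbc1d13*, which inactivates Rab35, went from 22.2 to 47.3 CPM and *Rabgap1l*, which acts on Rab22a, from 45.3 to 93.9 CPM. LP1 lay near or below UI for these 6 genes, and LP4 stood apart from both.

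**Figure D5:**
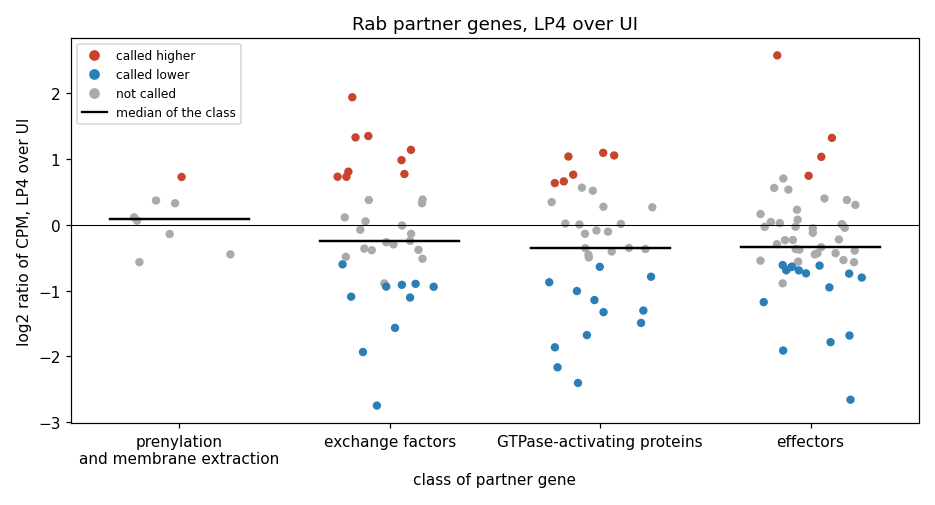
Log2 ratio of CPM in LP4 over UI (vertical axis) of the 132 Rab partner genes, by class as assigned in the list. Genes called higher are in red, called lower in blue and not called in grey, with the median of each class as a line. *Rab3gap1* and *Rab3gap2* stand with the exchange factors and *Rubcn* with the GTPase-activating proteins. Exchange factors and GTPase-activating proteins spread to both sides, from *Dennd4a* at -2.75 upward. Of the effectors, 15 (28.3%) were called lower and 4 (7.55%) higher, beside 27.1% and 18.0% of all genes.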

How the data were processed

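Single-cell RNA libraries of UI, LP1 and LP4 BMDMs were made with the 10x 3′ kit. The authors made UMI counts per gene and barcode with Cell Ranger (7.1.0 in the submitters' processing notes) on mouse mm10. As deposited these counts are whole numbers without normalization, in barcodes called as cells. Whether reads in introns were counted is not given in the sources used here.

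The limits of the study on barcodes, over 500 UMIs, over 500 genes and less than 5% mitochondrial UMIs, left 15806 of 16281, which is above the number that the study gives for them. UMIs were summed by library and expressed as CPM with exact Poisson intervals. Log2 ratios had exact conditional binomial intervals, and shares exact binomial ones, at 95%. A gene at 0 UMIs was set to a floor of 3. Intervals cover counting error only. Total UMIs by library, given in the report, set that precision.

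Members, roles and partner genes were chosen with earlier results of these data known. All members with at least 20 UMIs are accounted for. Full values are given for members called in any comparison with at least 10 CPM in 1 library. They are also given for the 2 most abundant of each role and *Rab7b*. The text of the study names *Rab7b*, and its supplement also lists *Rab31* among genes higher in LP4 than in uninfected cells. Of the partner genes named above, the supplement lists *Dennd1a* and *Exoc6b* there too, and *Dennd4a* among genes higher in uninfected cells than in LP4. Members with few UMIs or of interest for a paralog were added after their values were seen. Partner genes are named where called with at least 10 CPM, at most 6 in each direction by size. Gene positions are from a GENCODE annotation of GRCm38.

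For clusters, 2000 variable genes, from those with at least 200 UMIs and under 1.5-fold between libraries, were centred within libraries, with 30 principal components, 20 neighbours and Leiden resolution 0.5 (seed 20). Names needed 3 markers of a list among the 10 leading genes, and clusters without them were called macrophage-like where at least 3 macrophage markers were detected in at least 50% of the cells. Doublets were not removed, and the 5% of cells with the highest doublet scores were left out as an alternative. Python 3.11.15, scanpy 1.11.5, R 4.3.3, edgeR 4.0.16 (TMM) and DESeq2 1.42.0 (medians of ratios) were used. The calculation of ratios and intervals was checked on simulated Poisson counts. These hold counting error only, so the check cannot speak to spread between wells or libraries. Other alternatives were cell filters, scalings, weights, minimum levels, the fold and the resolution. Leaving out cluster H was chosen after seeing the data.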

Additional observations from a re-analysis of the deposited data

How the results depend on the processing

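No paired analysis was possible because each condition has 1 library, and for the same reason no replicate could be left out. The log2 ratios of the 21 named Rab genes in 3 comparisons were recomputed under 10 alternatives of cells, scaling and weight. Of 630 such values, 605 kept direction and side of 1.5-fold, 6 lost a call, 6 gained one, and 13, all uncalled, changed sign. The 6 lost calls were those of *Rab43* and *Rab24* under TMM and medians of ratios. Counts of calls that moved by over 1.5 times were the following. At 2-fold, LP4 over UI called 7 Rab genes higher and 4 lower and 10 and 19 partner genes (10.7% and 15.6% of all genes), LP4 over LP1 called 4 and 3 Rab genes and 9 and 15 partner genes (10.4% and 12.3% of all), and LP1 over UI called 1 Rab gene higher, 0 lower and 1 partner gene lower (1.23% and 3.19% of all). With at least 10 CPM in a library, LP4 over LP1 called 7 Rab genes higher and 2 lower (16.3% and 18.5% of all genes), and LP1 over UI 1 higher and 0 lower, with 2 partner genes lower (4.22% and 2.81% of all). With macrophage-like clusters alone, LP1 over UI called 1 Rab gene higher, 0 lower and 3 partner genes lower (3.98% and 6.30% of all genes). Without cluster H, an alternative chosen after seeing the data, LP1 over UI called 0 Rab genes lower (6.54% of all genes), the call of *Rab44* being lost. Under TMM and medians of ratios, LP4 over LP1 called 3 Rab genes lower (18.8% and 18.2% of all genes) and LP1 over UI 2 partner genes lower (5.50% and 5.54% of all). With means of cell shares, LP1 over UI called 3 partner genes lower (6.99% of all genes), and with no condition on the interval it called 2 Rab genes lower (10.9% of all). The stricter settings call fewer genes by construction, and the cause of the other shifts was not tested. Clusters at resolutions of 0.3 and 0.8 again left 13 of the 14 called genes with 1 direction in each cluster compared. At 0.8, however, cluster A held 1536 UI and 72 LP4 cells and cluster F 129 and 1211, so ratios within these clusters set a small part of 1 library against a large part of another. Depth limits members under 10 CPM, above all *Rab38*, *Rab26* and *Rab42*.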
